A study of Bos taurus with 40 samples.

Results

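Abdominal fat was represented by 10 of the 40 samples, taken by their tissue label, and was set against the 30 samples of liver, longissimus dorsi muscle (a muscle of the back) and pituitary gland. All 4 tissues came from the same 10 untreated Korean cattle, a beef breed. These were 5 cows and 5 bulls slaughtered at an age of over 22 months, each giving 1 library per tissue, and samples were matched by the animal's ear tag. Whole pieces of tissue were used, so each value is a mean over all cells in the piece, and fewer cells of a type cannot be told apart from less RNA per cell.

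White adipose tissue stores triglyceride in the single large lipid droplet of the adipocyte, releases it as fatty acids and glycerol when hormones call for it, and secretes peptide hormones such as leptin. In ruminants, adipose tissue rather than liver is the main site of fatty acid synthesis, with acetate from the rumen as the main source of carbon. Besides adipocytes, the tissue holds fibroblast-like progenitors, vessels and immune cells. Abdominal fat lies inside the body cavity and is covered by mesothelium.

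The marker genes fixed for the label were ADIPOQ, LEP and PLIN1. ADIPOQ was not analysed here. Levels below are counts per 1000000 reads on genes (CPM), with library sizes scaled by TMM factors, which correct for differences in composition between libraries. CPM values are not adjusted for gene length, so the levels of different genes are not on a common scale. LEP, which encodes the satiety hormone leptin, had 481 to 2216 CPM (median 728) in fat. In muscle it had 1.21 to 55.5 CPM (median 9.10), and in liver and pituitary gland no sample exceeded 2.33 CPM. Every fat sample therefore lay above every sample of the other tissues, and the difference from muscle, the nearest tissue, was 6.39 ± 0.50 on the log2 scale (± SE here and below, adjusted p = 4.22e-13, tested as described further on). The SE was derived from the test, as the size of the difference divided by the square root of the F statistic. PLIN1, the coat protein that guards the adipocyte droplet, had 1114 to 2704 CPM (median 2001) in fat and 10.7 to 253 CPM (median 44.8) in muscle. Its log2 difference was 5.20 ± 0.35 from muscle and 7.63 ± 0.39 from pituitary gland. The 8 adipocyte markers with counts were LEP, PLIN1, CIDEC, LIPE, FABP4, THRSP, AQP7 and PNPLA2, and for all 8 the 10 fat samples lay above the 30 others.

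**Figure D1:**
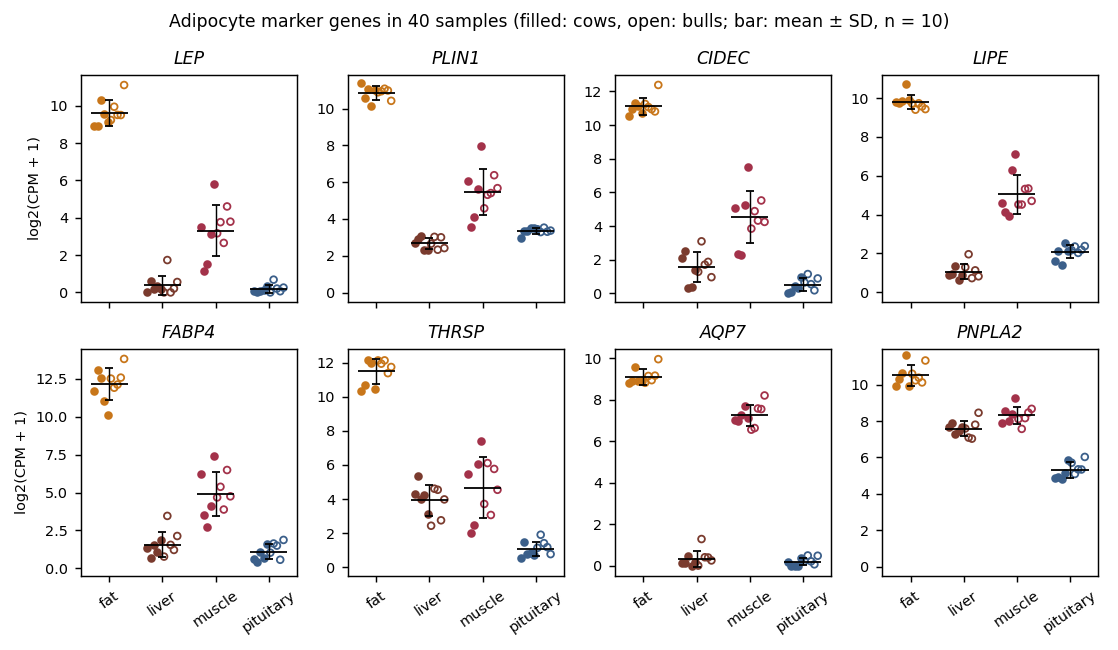
Expression of 8 adipocyte marker genes in the 40 samples, as log2(CPM + 1), by tissue. Filled points are cows, open points bulls, and the bars give the mean ± SD of the 10 samples of a tissue. In each panel the 10 fat samples sit above the 30 other samples, and muscle spreads more widely than liver or pituitary gland for most of the genes.

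Summed over these 8 genes, fat samples held 9276 (cow 5) to 31049 CPM (bull 5), with a median of 16140.3 CPM. The sums were 449 to 1717 CPM in muscle, 162 to 374 CPM in liver and 38.4 to 82.7 CPM in pituitary gland. The highest muscle sum was that of cow 5. Summed over each list, the defining markers of the other tissues were low in fat. Skeletal muscle fibre markers summed to 14.8 to 175 CPM in fat against at least 146620.0 CPM in muscle. Pituitary endocrine cell markers summed to 24.1 to 233 CPM in fat against at least 92446 CPM in pituitary gland. Hepatocyte markers summed to 93.9 to 1969 CPM in fat against at least 179969 CPM in liver, and TF, which encodes the iron carrier transferrin, held most of the reads in that sum in cows 1 to 3, with 1006, 896 and 1806 CPM. ALB, the albumin gene, had 8.97 to 105 CPM (median 23.5) in the same fat samples.

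Between 8596267 and 14308316 reads were counted on genes in a fat sample (median 10417480), against 5173092 to 19165864 over all 40 samples. No 2 samples held identical counts. The closest pair within a tissue was the liver of cow 4 and the library labelled as the liver of bull 3, which had XIST at 1401 CPM and no read on the Y-linked genes USP9Y, DDX3Y and ZFY. Without that library, 851 genes were higher in fat than in each other tissue in place of 856, and 589 lower in place of 601. Among the fat samples, those of bull 5, cow 2 and cow 4 held fewer reads on long genes and those of cow 1 and cow 5 more, as described further on, and counts are also given without each of these sets.

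Each gene was tested between fat and each other tissue with edgeR's quasi-likelihood test, with the animal as a block and Benjamini-Hochberg adjustment over 13148 genes. A gene was called where the adjusted p was below 0.05 and the difference at least 2-fold. Against liver, 3295 genes (25.1%) were higher in fat and 2801 (21.3%) lower. Against muscle, 3091 genes (23.5%) were higher and 2537 (19.3%) lower. Against pituitary gland, 2852 genes (21.7%) were higher and 3287 (25%) lower. The genes higher in fat than in each of the 3 tissues, called fat-high below, numbered 856 (6.51%), and those lower than in each, called fat-low, numbered 601 (4.57%). Relative to the mean of the 3 other tissues, with no fold minimum, 4263 genes (32.4%) were higher in fat and 4019 (30.6%) lower. Fat samples did not overlap with the others, all lying above them, in 211 genes (1.6%), of which 200 (1.52%) were fat-high. They all lay below in 72 genes (0.548%), of which 70 (0.532%) were fat-low. Without the fat of cow 2, cow 4 and bull 5, 702 genes were fat-high and 393 fat-low, with 659 and 367 genes shared with the calls from all samples. Without the fat of cow 1 and cow 5, 950 genes were fat-high and 829 fat-low, with 821 and 591 shared. The log2 difference of the median gene was 0.12 from liver, 0.13 from muscle and -0.05 from pituitary gland.

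Of the 183 fat-high genes whose 10 fat samples lay above the 30 others and which averaged at least 10 CPM in fat, the 20 with the largest difference from their nearest tissue are described first. They include LEP and PLIN1. S100A5, a small calcium-binding protein of the S100 family, headed the order. It had 3.30 to 137 CPM (median 49.7) in fat, no read in any liver sample, at most 0.263 CPM in muscle and at most 0.0808 CPM in pituitary gland. Against a floor of 3 reads over the 10 livers, its mean in fat was at least 1450-fold higher. The values in fat spanned a wide range, from 3.30 CPM in bull 3 to 137 CPM in cow 2. S100G, another member of that family, which encodes calbindin D9k, had 15.3 to 484 CPM (median 107) in fat and 0.508 to 7.49 CPM (median 1.61) in muscle.

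FABP4, CIDEC, CIDEA, THRSP, DGAT2 and PPARG were also among the 20. FABP4, the fatty acid carrier of the adipocyte cytosol, had 1109 to 14448 CPM (median 5172) in fat and 5.71 to 171 CPM (median 25.3) in muscle, a log2 difference of 7.26 ± 0.60 (adjusted p = 1.44e-12). CIDEC and CIDEA sit where droplets touch and promote their fusion. CIDEC had 1517 to 5352 CPM (median 2086) in fat and 3.93 to 184 CPM (median 23.8) in muscle, and its log2 difference from muscle was 6.50 ± 0.60 (adjusted p = 2.13e-11). For CIDEA liver was the nearest tissue, with 3.40 to 12.1 CPM (median 8.74) against 65.2 to 801 CPM (median 156) in fat (4.85 ± 0.36, adjusted p = 5.81e-14). THRSP, a regulator of lipogenesis, had 1290.3 to 4545 CPM (median 3661) in fat and lay 6.43 ± 0.63 above muscle on the log2 scale. DGAT2, which adds the last acyl chain to triglyceride, had 1839 to 5233 CPM (median 2816) in fat and 18.3 to 332 CPM (median 61.0) in muscle (5.29 ± 0.41). PPARG, the nuclear receptor that drives adipocyte differentiation, had 24.1 to 78.7 CPM (median 46.8) in fat, and the highest of the 30 other samples, a muscle sample, had 3.29 CPM.

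ADIG, which encodes the small adipocyte protein adipogenin, had 41.2 to 704 CPM (median 129.8) in fat and 0.254 to 9.47 CPM (median 1.94) in muscle (6.31 ± 0.48). TUSC5, also known as TRARG1, a regulator of glucose transporter 4 traffic, had 1215 to 2723 CPM (median 1793) in fat and 3.30 to 198 CPM (median 29.8) in muscle (6.0 ± 0.51). C28H10orf116, the cattle symbol of adipogenesis regulatory factor, had 159 to 4899 CPM (median 818) in fat. The value of bull 5 in that gene was far above the next one, 1430.0 CPM in cow 2. CCDC3, a secreted protein of adipose tissue and endothelium, was the most even of the group in these samples, with 996 to 1661 CPM (median 1297) in fat and 21.0 to 168 CPM (median 37.6) in muscle (4.83 ± 0.30).

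The rest of the 20 have no common role in lipid storage. GSC, the homeobox gene goosecoid, had 2.75 to 27.1 CPM (median 7.38) in fat and at most 0.381 CPM elsewhere. MDFI, an inhibitor of myogenic transcription factors, had 34.2 to 215 CPM (median 64.1) in fat and 0.507 to 4.44 CPM (median 1.74) in pituitary gland, its nearest tissue (5.34 ± 0.48). PPP1R1B, also known as DARPP-32, an inhibitor of protein phosphatase 1, had 205 to 854 CPM (median 378) in fat and 3.99 to 38.3 CPM (median 11.95) in muscle (5.09 ± 0.46). PRR5L, a partner of the mTORC2 kinase complex, had 6.72 to 34.3 CPM (median 22.8) in fat and stayed at or below 1.29 CPM in the 30 other samples. SDSL, a serine dehydratase-like enzyme, had 15.2 to 164 CPM (median 29.6) in fat and at most 2.46 CPM elsewhere. TECTB, best known as beta-tectorin of the inner ear, had 2.42 to 143 CPM (median 22.4) in fat and at most 1.49 CPM elsewhere. Each of these 6 genes was fat-high with an adjusted p of 1.30e-11 or less against its nearest tissue.

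**Figure D2:**
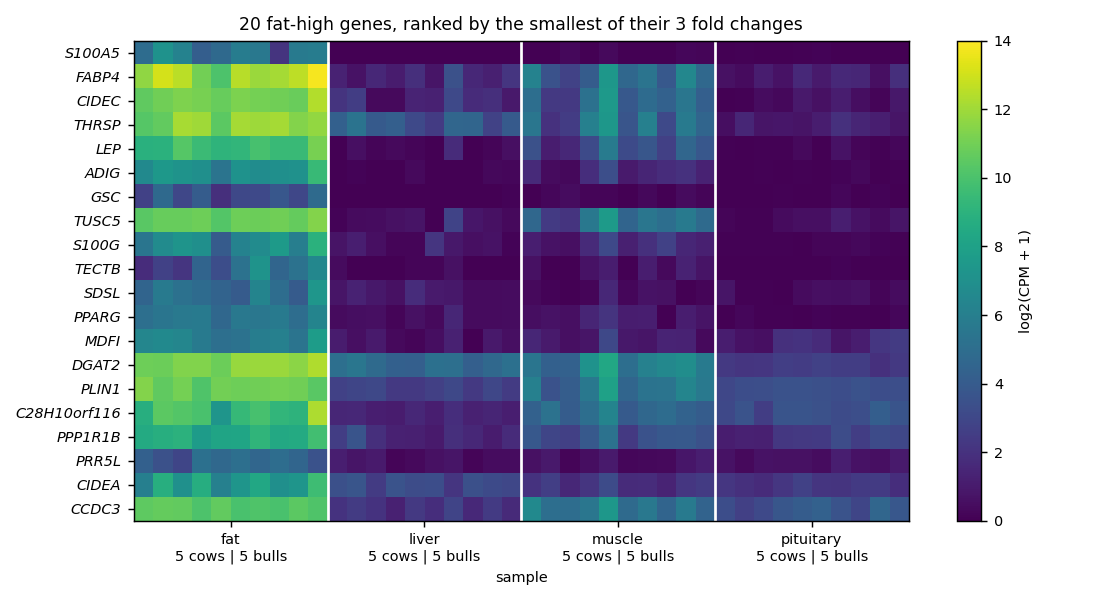
Expression of 20 fat-high genes in the 40 samples as log2(CPM + 1), with samples in columns grouped by tissue and, within a tissue, cows 1 to 5 before bulls 1 to 5. Rows are ordered by the difference from the nearest other tissue, from S100A5 down to CCDC3, and the last fat column, bull 5, is the brightest for FABP4, CIDEC, LEP and ADIG.

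Among the 13 tested genes for proteins that adipocytes secrete, 5 were fat-high and none fat-low. For this list and those below, the shares among all genes were 6.51% fat-high and 4.57% fat-low. The lists were chosen with earlier results of these data known, so their counts are descriptive. The list's median log2 difference was 1.31 from liver (0.50 with genes without a read in a tissue set at their bound), 2.29 from muscle and 2.89 from pituitary gland. Fat-high members beside LEP included ANGPTL4, C1QTNF1 and C1QTNF7. C1QTNF1 and C1QTNF7, secreted proteins related to adiponectin, had 61.6 to 414 CPM (median 182) and 6.14 to 36.2 CPM (median 19.1) in fat. ANGPTL4, an inhibitor of lipoprotein lipase, had 28.6 to 647 CPM (median 103) in fat, 12.7 to 142 CPM (median 41.2) in liver and 2.94 to 119 CPM (median 46.6) in muscle, so that the tissues overlapped. Its call against muscle (1.33 ± 0.50, adjusted p = 0.0203) was lost without bull 1, cow 1, cow 2 or cow 3, and the one against liver without the fat of cow 2, cow 4 and bull 5.

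RBP4 and AGT were higher in fat than in muscle and pituitary gland but lower than in liver. RBP4, the retinol carrier, had 445 to 2475 CPM (median 1322) in fat, 1808 to 6966 CPM (median 4599) in liver and 15.0 to 122 CPM (median 27.8) in muscle. AGT, which encodes angiotensinogen, had 11.4 to 156 CPM (median 36.1) in fat and 491 to 1764 CPM (median 1330.4) in liver (-4.90 ± 0.54), and its call against muscle was lost without the fat of cow 2, cow 4 and bull 5. CFD, the complement protease adipsin and a classical adipocyte product in rodents, had 22.7 to 221 CPM (median 48.3) in fat and 35.1 to 210.5 CPM (median 101) in liver, where the log2 difference of -0.70 ± 0.29 was under the fold minimum. RETN, which encodes resistin, reached 1.23 CPM in cow 2 and had a median of 0.130 CPM in fat, and NAMPT, an enzyme of NAD synthesis also found in plasma, was lower in fat (30.7 to 72.9 CPM) than in muscle (140.4 to 734 CPM).

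Lipid droplet proteins were fat-high in 7 of 13 tested genes, with medians of 2.82 against liver, 1.14 against muscle and 4.53 against pituitary gland. Next to PLIN1, CIDEA and CIDEC these were PLIN2, FITM2, CAV1 and PTRF. PLIN2, the droplet coat of most cell types, had 172 to 778 CPM (median 443) in fat and 41.8 to 522 CPM (median 176) in muscle (1.25 ± 0.29, adjusted p = 3.83e-04). CAV1 and PTRF build caveolae, the plasma membrane pits that are dense in adipocytes and endothelium. CAV1 had 803 to 2649 CPM (median 1689) in fat and 320.1 to 662 CPM (median 495) in muscle (1.79 ± 0.20), and PTRF had 1974 to 3896 CPM (median 3428) and 1129 to 1949 CPM (median 1283) (1.14 ± 0.20). FITM2, needed for droplet budding, had 87.1 to 194 CPM (median 137) in fat against 27.8 to 120.1 CPM (median 54.3) in muscle, a call lost after the adjustment for gene span described further on. Its paralogue FITM1 had 4.61 to 22.2 CPM (median 6.45) in fat and 38.1 to 111 CPM (median 55.9) in muscle.

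Triglyceride breakdown and its hormonal control counted 8 fat-high genes of 16 tested, with medians of 2.18, 1.91 and 3.77 against liver, muscle and pituitary gland. The 3 lipases that act in turn were all among them. PNPLA2, the adipose triglyceride lipase, had 966 to 3157 CPM (median 1297) in fat and 189 to 610.0 CPM (median 312) in muscle (2.24 ± 0.20). LIPE, the hormone-sensitive lipase, had 678 to 1683 CPM (median 859) in fat and 14.1 to 136 CPM (median 24.0) in muscle (4.71 ± 0.31). MGLL, which cleaves the last fatty acid from glycerol, had 279 to 1336 CPM (median 616) in fat and 133 to 269 CPM (median 194) in muscle (1.80 ± 0.27). AQP7, the channel through which glycerol leaves, and G0S2, an inhibitor of PNPLA2, were also fat-high. AQP7 had 444 to 995 CPM (median 485) in fat and 93.3 to 295 CPM (median 144) in muscle, and liver and pituitary gland stayed at or below 1.43 CPM. G0S2 had 70.0 to 3038 CPM (median 178) in fat, spread from 70.0 CPM in bull 3 to 3038 CPM in bull 5. ABHD5, the activator of PNPLA2, was higher in fat than in liver and pituitary gland, and its log2 difference from muscle was 0.54 ± 0.20.

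Receptors that restrain lipolysis and those that stimulate it did not follow the same pattern. ADORA1, the inhibitory adenosine receptor, had 27.4 to 100 CPM (median 43.0) in fat and at most 4.04 CPM elsewhere (4.22 ± 0.24 from pituitary gland, adjusted p = 5.23e-17). HCAR1, the lactate receptor that curbs lipolysis, was fat-high at a low level, 0.870 to 11.5 CPM (median 2.85). NPR1, a natriuretic peptide receptor that stimulates lipolysis, had 32.0 to 171 CPM (median 127) in fat and 28.1 to 62.1 CPM (median 41.2) in muscle. NPR3, the clearance receptor for the same peptides, had 0.174 to 6.54 CPM (median 1.79) in fat and 1.74 to 113 CPM (median 28.5) in muscle (-4.02 ± 0.68). Among the stimulatory beta-adrenergic receptors, ADRB1 had 1.08 to 7.40 CPM (median 2.70) in fat, and ADRB3 had a median of 0.148 CPM with a highest value of 2.47 CPM in bull 3.

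For fatty acid uptake and binding, 5 of 14 tested genes were fat-high, namely LPL, CD36, FABP4, FABP5 and DBI, with medians of 0.88, 0.17 and 1.55. LPL, the lipase that frees fatty acids from lipoproteins on the vessel wall, had 744 to 2816 CPM (median 1438) in fat and 53.8 to 551 CPM (median 286) in muscle (2.50 ± 0.34, adjusted p = 7.62e-08). CD36, a fatty acid transporter, had 773 to 4253 CPM (median 2639.6) in fat and 535 to 1268 CPM (median 887) in liver (1.39 ± 0.30, adjusted p = 1.49e-04). FABP5 had 315 to 1694 CPM (median 719) in fat and 70.3 to 384 CPM (median 183) in muscle. The call of DBI, an acyl-CoA binding protein, against liver was lost without bull 5. FABP3, the binding protein of heart and muscle, had 1.89 to 12.1 CPM (median 3.77) in fat and 139 to 1156 CPM (median 393) in muscle (-6.54 ± 0.37). VLDLR, a receptor for lipoproteins, had 29.1 to 149 CPM (median 81.7) in fat and 197 to 643 CPM (median 312) in muscle. ACSL1, which activates fatty acids, had 138 to 678 CPM (median 363) in fat and was lower than in liver and muscle, the latter difference being under 2-fold once gene span was adjusted for.

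De novo fatty acid synthesis was the process list with the highest share of fat-high genes, 12 of 18 tested, with 2 fat-low genes and medians of 3.02, 3.74 and 3.48. FASN, the fatty acid synthase, had 1918 to 19944 CPM (median 6504) in fat, 14.7 to 189.5 CPM (median 36.8) in liver and 50.4 to 1084 CPM (median 197) in muscle (4.69 ± 0.43, adjusted p = 2.46e-11). ACSS2, which activates acetate in the cytosol, had 995 to 5465 CPM (median 2379) in fat and 39.9 to 284 CPM (median 96.5) in muscle (4.62 ± 0.44). ACLY, which makes acetyl-CoA from citrate, had 64.5 to 1855 CPM (median 204) in fat and 70.8 to 108 CPM (median 89.0) in pituitary gland (1.69 ± 0.33). The acetate-activating enzyme thus kept all 10 fat samples above the others, whereas the lowest fat value of ACLY, 64.5 CPM in cow 2, lay below the lowest pituitary value.

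The first committed enzyme differed between its isoforms. ACACA, the cytosolic acetyl-CoA carboxylase of lipogenesis, had 273 to 3625 CPM (median 984) in fat and 28.8 to 267 CPM (median 59.5) in muscle (3.80 ± 0.35). ACACB, the mitochondrial form that limits fatty acid oxidation, had 0.574 to 3.37 CPM (median 1.74) in fat and 494 to 2761 CPM (median 1047) in muscle (-9.36 ± 0.44). Enzymes that supply NADPH were fat-high. PGD, of the pentose phosphate pathway, had 269 to 921 CPM (median 518) in fat and 64.1 to 102 CPM (median 75.0) in pituitary gland (2.84 ± 0.21). ME1 (malic enzyme) had 90.7 to 644 CPM (median 237) and IDH1 (cytosolic isocitrate dehydrogenase) had 444 to 1911 CPM (median 1046) in fat. The citrate carrier SLC25A1 was fat-high as well, at 117 to 1514 CPM (median 634).

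Desaturases differed in direction as well. SCD, the stearoyl-CoA desaturase that makes oleic acid, had 5703 to 23179.6 CPM (median 14036) in fat and 167 to 1801 CPM (median 568) in muscle (4.64 ± 0.60, adjusted p = 3.17e-08). In liver it had 19.0 to 2017 CPM (median 81.8). SCD5, its paralogue of brain and endocrine tissue, was fat-low, with 0.638 to 3.32 CPM (median 2.19) in fat and 30.3 to 51.6 CPM (median 37.9) in pituitary gland. FADS2, the delta-6 desaturase of polyunsaturated fatty acids, was fat-low too, with 0.551 to 10.6 CPM (median 2.97) in fat and 8.87 to 2851 CPM (median 129) in liver (-6.28 ± 0.71). ELOVL6, which lengthens palmitate, was fat-high at 89.6 to 1259 CPM (median 547), and ELOVL5, which lengthens polyunsaturated chains, was higher in liver (522 to 1956 CPM) than in fat (139 to 911 CPM). That last difference, -1.14 ± 0.27, missed the fold minimum without bull 5 and after adjustment for gene span. PC, pyruvate carboxylase, was called against muscle and pituitary gland but not against liver (0.03 ± 0.31, adjusted p = 0.947).

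In glycerolipid assembly, 4 of 15 tested genes were fat-high and 1 fat-low, with medians of 0.25, 1.53 and 2.57. GPAM, the first acyltransferase, had 489.7 to 1488 CPM (median 1162) in fat and 52.1 to 787 CPM (median 271) in muscle (1.76 ± 0.35). AGPAT2, the second, had 427 to 5031 CPM (median 1546) in fat and 100.4 to 273 CPM (median 180.2) in liver (3.30 ± 0.32). The last step again differed between enzymes, with DGAT2 fat-high and DGAT1 at 46.5 to 172 CPM (median 59.0) in fat against 42.3 to 83.4 CPM (median 62.3) in pituitary gland. MOGAT2, a monoacylglycerol acyltransferase, was fat-high at 0.183 to 2.11 CPM (median 1.08), with no read in liver, where its fat mean was at least 30.4-fold higher. MOGAT1 was fat-low, with at most 0.0905 CPM in fat and 4.37 to 46.6 CPM (median 13.2) in liver. Glycerol 3-phosphate can come from glucose through GPD1, from pyruvate through PCK1 and from free glycerol through GK. GPD1 had 461 to 1986 CPM (median 764) in fat and 387 to 1759 CPM (median 956) in muscle (-0.12 ± 0.24, adjusted p = 0.685), and 213 to 588 CPM (median 345) in liver. PCK1 had 74.9 to 336 CPM (median 173) in fat, above muscle and pituitary gland and below liver (-3.05 ± 0.40). GK, the glycerol kinase that white adipocytes largely lack, had 3.54 to 15.8 CPM (median 7.46) in fat and 55.8 to 365 CPM (median 128) in liver.

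Of 20 tested adipocyte transcription factors, 5 were fat-high (3 after adjustment for gene span) and 1 fat-low, with medians of 1.34, 0.10 and 1.30. Next to PPARG these were CEBPA, EBF1, KLF4 and RXRG. CEBPA, which acts with PPARG, had 73.8 to 185 CPM (median 96.6) in fat and 24.0 to 78.9 CPM (median 38.2) in liver (1.33 ± 0.25), a call that was lost after adjustment for gene span. KLF4, an early factor of adipogenesis, had 186 to 330.2 CPM (median 251) in fat and 39.6 to 246 CPM (median 97.1) in muscle, and its call against muscle was lost in the same way. EBF1 had 34.4 to 187 CPM (median 127) in fat and 34.1 to 103 CPM (median 52.8) in muscle (1.04 ± 0.31), close to the fold minimum and lost without bull 2, bull 3 or bull 4. RXRG, a partner of nuclear receptors, had 27.4 to 179 CPM (median 81.8) in fat and 18.6 to 60.4 CPM (median 33.9) in pituitary gland, a call lost without bull 5.

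The lipogenic factors were not fat-high. SREBF1, which drives lipogenic genes in response to insulin, had 118 to 980.1 CPM (median 231) in fat and 154 to 673 CPM (median 321) in muscle (-0.36 ± 0.25, adjusted p = 0.226). MLXIPL, the carbohydrate-responsive factor ChREBP, had 45.6 to 261 CPM (median 63.0) in fat and 197 to 409 CPM (median 295) in liver (-1.91 ± 0.32). NR1H3, the oxysterol receptor LXR alpha, had 62.9 to 427 CPM (median 91.3) in fat and 89.7 to 159 CPM (median 118) in liver. KLF5 had 1.88 to 7.66 CPM (median 4.37) in fat against 15.1 to 124 CPM (median 38.3) in muscle. PPARGC1A, a coactivator of mitochondrial biogenesis, was fat-low, with 2.73 to 8.89 CPM (median 5.80) in fat and 29.9 to 1422 CPM (median 87.8) in muscle, and its call against pituitary gland was lost after adjustment for gene span.

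Factors of depot and mesodermal position counted 6 fat-high genes of 20 tested, TBX5, TWIST2, MEOX1, IRX3, NR2F1 and OSR1. The medians were 5.79 against liver, 0.64 against muscle and 4.15 against pituitary gland. MEOX1 had 6.50 to 33.6 CPM (median 20.1) in fat and 4.29 to 10.4 CPM (median 7.06) in muscle (1.31 ± 0.26), and TWIST2 had 6.06 to 53.5 CPM (median 19.4) and 0 to 2.34 CPM (median 1.17) (4.30 ± 0.42). IRX3, a homeobox gene linked to fat mass in people through the FTO locus, had 21.9 to 99.6 CPM (median 35.1) in fat and 2.98 to 17.1 CPM (median 10.3) in muscle (2.02 ± 0.49, adjusted p = 5.88e-04). TBX5 had 0.155 to 4.92 CPM (median 1.60) in fat and no read in liver or pituitary gland, where its fat mean was at least 59.5-fold and 108-fold higher. The call of NR2F1 against liver (1.05 ± 0.26) was lost without cow 1, bull 3 or bull 4, with DESeq2 and after adjustment for gene span.

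The HOX genes, which keep a record of position along the body axis, were higher in fat than in liver and pituitary gland. HOXA9 had 23.1 to 94.4 CPM (median 47.0) in fat and 17.0 to 244 CPM (median 56.5) in muscle (-0.49 ± 0.26, adjusted p = 0.111), against at most 0.156 CPM in liver and pituitary gland. HOXA10 had 3.94 to 30.1 CPM (median 16.3) in fat and 6.21 to 42.5 CPM (median 16.7) in muscle, and no read in pituitary gland. HOXA5 and HOXD4 had medians of 24.0 and 21.1 CPM in fat and of 11.9 and 14.6 CPM in muscle. TBX15 was lower in fat (1.24 to 12.3 CPM) than in muscle (80.1 to 242 CPM) and above liver and pituitary gland. TCF21, a marker of visceral fat progenitors in rodents, had 0.103 to 2.73 CPM (median 0.916) in fat and 5.19 to 10.5 CPM (median 7.48) in liver, and GATA4 had at most 0.0905 CPM in fat.

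In insulin signalling and glucose entry, 2 of 16 tested genes were fat-high and 1 fat-low, and the medians were 0.65, -0.53 and 0.14. TUSC5 and SLC2A3, a glucose transporter, were fat-high, the latter with 40.6 to 166 CPM (median 83.5) in fat and 18.2 to 43.2 CPM (median 25.8) in muscle (1.77 ± 0.25). SLC2A4, the insulin-responsive transporter, had 7.33 to 53.2 CPM (median 15.0) in fat and 91.7 to 728 CPM (median 301) in muscle (-3.91 ± 0.37). GRB14, which inhibits the insulin receptor, was fat-low, at 0 to 0.464 CPM (median 0.198) in fat against 65.8 to 115 CPM (median 93.2) in liver (-8.79 ± 0.43). SLC2A1 did not pass the test against any tissue, with adjusted p-values of 0.464 to 0.744.

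Thermogenic genes gave 3 fat-high members of 16 tested, UCP1, CIDEA and CKB, and 2 fat-low ones, PPARGC1A and CKMT2. UCP1, the uncoupling protein of brown fat, had 0 to 5.43 CPM (median 0.731) in fat and at most 0.296 CPM elsewhere (4.81 ± 0.78 from muscle, adjusted p = 2.13e-06). At 4.58 to 5.43 CPM, the fat of cow 4, cow 5, bull 1 and bull 2 held most of it, and cow 2 had no read. CKB, a creatine kinase used in a futile cycle of thermogenic fat, had 36.4 to 508 CPM (median 183) in fat and 14.7 to 34.45 CPM (median 19.99) in pituitary gland (3.31 ± 0.35). UCP2 had 87.7 to 602 CPM (median 236) in fat and was not called against pituitary gland (0.85 ± 0.26). UCP3 had at most 0.520 CPM in fat and 206 to 2612 CPM (median 769) in muscle, and CKMT2, the mitochondrial muscle creatine kinase, had 0.0819 to 3.25 CPM (median 0.615) in fat and 1318 to 3766 CPM (median 2064) in muscle. DIO2, which activates thyroid hormone, had at most 0.464 CPM in fat.

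Steroid and hormone receptors, with enzymes of steroid metabolism, were the list with the most fat-low genes, 4 of 26 tested, and 1 was fat-high (2 without bull 5, with the stricter filter or after adjustment for gene span). The medians were 0.48, -0.70 and -0.79. HSD17B12, an enzyme of very long fatty acid and steroid synthesis, was fat-high at 145 to 597 CPM (median 301) against 40.7 to 281 CPM (median 97.9) in liver. The fat-low genes included ESR1, LEPR and RORA. ESR1, the estrogen receptor alpha, had 0 to 13.0 CPM (median 1.51) in fat and 12.9 to 58.9 CPM (median 22.8) in pituitary gland (-3.86 ± 0.53, adjusted p = 1.01e-07). Cow 1 held its highest fat value, and bull 5 had no read. LEPR, the leptin receptor, had reads in only 2 fat samples, 1.13 CPM in cow 1 and 0.236 CPM in cow 5. Cow 1 and cow 5 were the fat samples with more reads on long genes, and bull 5 was among those with fewer. The part of that difference in the ESR1 and LEPR values was not tested. RORA had 0.812 to 2.63 CPM (median 1.89) in fat and 1.99 to 11.0 CPM (median 6.89) in pituitary gland, and that call was lost after adjustment for gene span.

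Receptors of metabolic hormones varied in direction. GHR, the growth hormone receptor, had 13.6 to 206 CPM (median 153) in fat and 159 to 517 CPM (median 389.9) in liver (-1.66 ± 0.32). Within fat it was low in cow 2 and bull 5, at 13.6 and 19.6 CPM, both among the fat samples with fewer reads on long genes. The part of that difference in the GHR values was not tested. ADIPOR2, an adiponectin receptor, had 223 to 744 CPM (median 432) in fat and 92.4 to 462 CPM (median 268) in muscle, a log2 difference of 0.89 ± 0.20 that passed the fold minimum without bull 5. PRLR had at most 0.492 CPM in fat, and HSD11B1, which regenerates cortisol, was below liver and pituitary gland, with 0.824 to 3.54 CPM (median 1.45) in fat and 411 to 1182 CPM (median 738) in liver. The glucocorticoid receptor NR3C1 had 40.2 to 197 CPM (median 128) in fat and was not called against any tissue.

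Extracellular matrix genes were fat-high in 13 of 27 tested and fat-low in none, with medians of 4.13, 1.08 and 3.48. SPARC, a collagen-binding matrix protein, had 8744 to 20311 CPM (median 14513) in fat and 1209 to 3122 CPM (median 1974) in muscle (2.82 ± 0.23, adjusted p = 1.32e-12). COL3A1 and COL1A1, chains of the fibrillar collagens, had 3246 to 18796 CPM (median 7470.2) and 599.6 to 12574 CPM (median 3892) in fat. Their log2 differences from muscle were 2.17 ± 0.30 and 2.47 ± 0.42. COL4A1, a basement membrane collagen of adipocytes and vessels, had 2591 to 9412 CPM (median 3874) in fat and 745 to 3980.1 CPM (median 1417) in muscle (1.61 ± 0.24). TIMP2, a metalloproteinase inhibitor, had 506 to 2368 CPM (median 813) in fat and 63.4 to 269.9 CPM (median 116) in muscle (2.89 ± 0.23). The basement membrane gene LAMC1 had medians of 1097 CPM in fat and 1098 CPM in muscle (0.05 ± 0.21, adjusted p = 0.871), and COL15A1 had medians of 450.0 and 404 CPM (0.31 ± 0.28). FN1, fibronectin, was lower in fat than in liver (-1.97 ± 0.41), which makes the plasma form.

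Markers of the other cells of adipose tissue followed the matrix genes in part. Of 15 fibroblast and progenitor markers, 10 were fat-high and 1 fat-low, the latter lost in several of the alternatives, with medians of 4.13, 1.41 and 2.81. PI16, a marker of early progenitors, had 84.5 to 909.6 CPM (median 304) in fat and 28.5 to 175 CPM (median 59.3) in muscle (2.19 ± 0.45), and CD34 had 82.2 to 469 CPM (median 353) and 74.8 to 256 CPM (median 87.5) (1.41 ± 0.23). PDGFRA, the receptor that marks mesenchymal progenitors, overlapped widely between fat (63.2 to 295 CPM) and muscle (88.9 to 257 CPM) and was not called (0.11 ± 0.26, adjusted p = 0.746). Summed over the list, fat held 3496 (cow 5) to 17852 CPM (bull 3) against 2413 to 8927 CPM in muscle. The sum was higher in fat than in the muscle of the same animal in 9 of 10 animals, and lower in cow 5 (3496 against 4238 CPM). The collagen genes differed in the fat of cow 5. COL3A1, at 6695 CPM, was above the highest muscle sample (3949 CPM). COL1A1 and COL1A2 had their lowest fat values there, at 599.6 and 586.6 CPM. The part of these cells in the matrix differences was not tested.

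Endothelial markers were fat-high in 7 of 12, among them VWF, with 670.1 to 1381 CPM (median 895) in fat and 117 to 284 CPM (median 227) in muscle (2.15 ± 0.25), and CLDN5, with 73.4 to 710.0 CPM (median 128) and 13.8 to 64.9 CPM (median 20.2) (2.95 ± 0.41). Their sum was 2187 to 3869 CPM in fat and 964 to 1463 CPM in muscle, without overlap. Of 9 markers of mural and smooth muscle cells, 2 were fat-high, MCAM and TAGLN. MCAM, an adhesion molecule of vessels, had 580.4 to 2263 CPM (median 1291) in fat and 50.9 to 134 CPM (median 92.4) in muscle (3.81 ± 0.32), and the call of TAGLN against muscle was lost without bull 5. All 10 macrophage markers were higher in fat than in muscle and pituitary gland, and none was higher than in liver. CD163 had 162 to 678 CPM (median 287) in fat, 262 to 1434 CPM (median 836) in liver and 23.0 to 167 CPM (median 104) in muscle. Fat-high genes numbered 0 among 14 T and NK cell markers, 8 B and plasma cell markers, 5 red blood cell markers, 10 muscle fibre markers, 11 hepatocyte markers and 12 pituitary endocrine cell markers. These counts come from edgeR's quasi-likelihood test with the fold minimum, and against muscle alone 3 of the 14 T and NK cell markers were higher in fat. The red blood cell markers summed to at most 2.40 CPM in fat, so their count says little.

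Most mesothelial markers were low in fat. Of 9 tested, 1 was fat-high, the claudin gene CLDN15, with 15.2 to 129.6 CPM (median 37.8) in fat. The sum of the 9 was 23.8 to 202 CPM in fat, 105 to 601 CPM in pituitary gland and 163 to 895 CPM in liver. In muscle it was 8.14 to 25.1 CPM, and in all 10 animals fat was above the muscle of the same animal. UPK3B had 3.69 to 30.6 CPM in fat, and MSLN, mesothelin, had at most 1.30 CPM. KRT8 and KRT19, keratins of simple epithelia, had 0.157 to 3.66 CPM (median 1.70) and 0.472 to 37.3 CPM (median 17.2). Of 7 Schwann cell markers, S100B was fat-high, with 299.6 to 1120.5 CPM (median 558) in fat and 30.4 to 161 CPM (median 96.6) in muscle (2.58 ± 0.25), and ERBB3 was fat-low. S100B is also made by adipocytes.

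**Figure D3:**
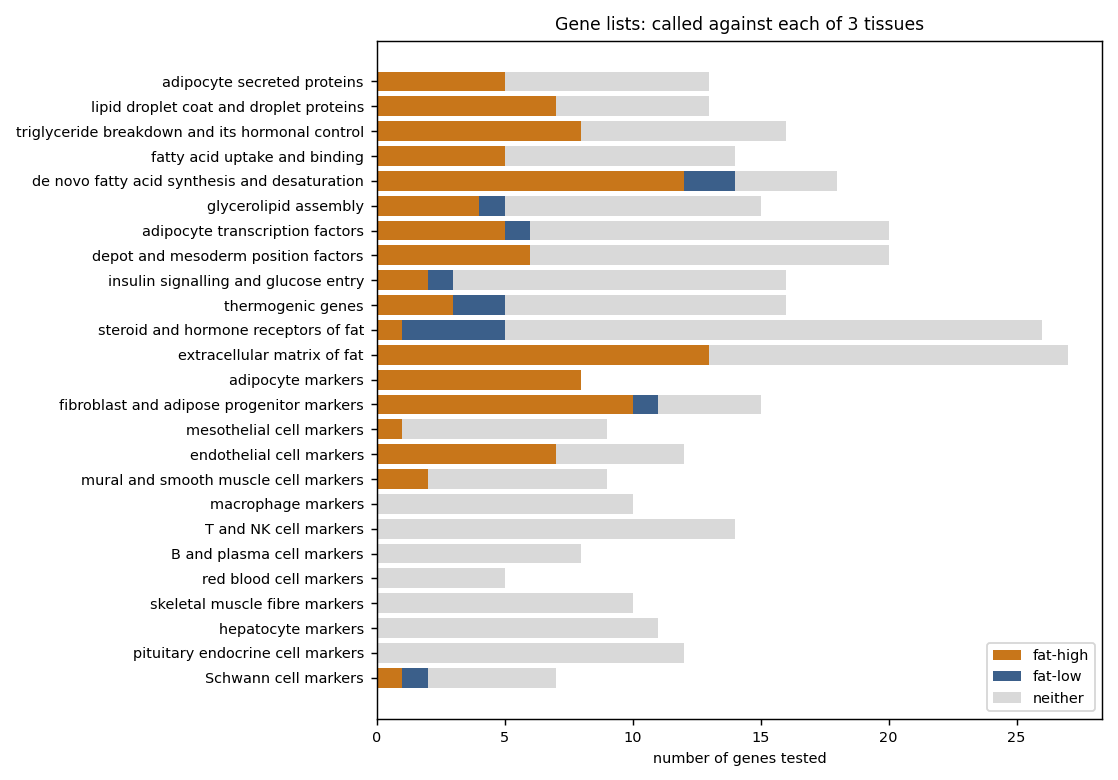
Number of tested genes in each of 12 process lists and 13 cell type marker lists that were fat-high, fat-low or neither. Fat-high genes reach 12 of 18 in de novo fatty acid synthesis and 13 of 27 in the matrix list, all 8 adipocyte markers are fat-high, and the lists of the other tissues' own cells hold none.

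Over the 12 process lists together, 70 of 211 tested genes were fat-high and 10 fat-low, against 6.51% and 4.57% of all genes. A further 42 entries had no counts. Since the lists were chosen with earlier results of these data known, this comparison is not a test. The medians of the 211 genes were 1.97, 0.92 and 2.35 against liver, muscle and pituitary gland.

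S100 genes, a family of small calcium-binding proteins, were looked at after their values were seen, since S100A5, S100G and S100B stood out. Of the 16 tested, 11 were fat-high and none fat-low, with medians of 2.82, 3.07 and 4.08. S100A4, made by fibroblasts and other motile cells, had 71.2 to 1588 CPM (median 272) in fat and 9.95 to 70.6 CPM (median 17.3) in muscle (3.85 ± 0.40, adjusted p = 3.53e-10). S100A10 and S100A11, partners of annexins, had 225 to 966 CPM (median 554) and 107 to 1263 CPM (median 579) in fat. Their log2 differences from muscle were 2.80 ± 0.32 and 3.34 ± 0.33. S100A3, a neighbour of S100A5 in the gene cluster, was low but fat-high, at 0.549 to 7.41 CPM (median 2.65). S100A8 and S100A9, the subunits of calprotectin in neutrophils and monocytes, were fat-high at 1.10 to 90.3 CPM (median 5.01) and 3.604 to 413 CPM (median 15.0), with bull 5 highest in both, and their calls against liver were lost without that fat sample. S100A7, fat-high at 0 to 0.541 CPM (median 0.0910), lost its calls with DESeq2, and S100A13 was fat-high at 5.59 to 79.6 CPM (median 19.0). S100A14 and S100A16 were not called against muscle (0.30 ± 0.24 and 0.08 ± 0.23), S100A2 was not called against any tissue, S100A12 was not called against liver, and S100A1 had no read in fat. The family's sum was 1353 CPM in cow 5 to 5527 CPM in bull 5.

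Among the 211 tested genes of the process lists, 10 were fat-low, a share similar to the 601 of all 13148 genes (4.57%). Of the 47 fat-low genes whose 10 fat samples lay below the 30 others and which averaged at least 10 CPM in each other tissue, the 8 with the largest difference from their nearest tissue were taken. ATP2B2, a calcium pump of the plasma membrane, had 0.724 to 2.68 CPM (median 1.61) in fat and 38.8 to 165 CPM (median 71.5) in liver, a log2 difference of -5.65 ± 0.27 (adjusted p = 2.13e-19). ANK3, the anchor protein ankyrin G, had 2.09 to 6.81 CPM (median 3.29) in fat and 82.4 to 184 CPM (median 127) in pituitary gland (-5.14 ± 0.29). TUBA4A, an alpha-tubulin, had 0.638 to 2.40 CPM (median 1.37) in fat and 28.3 to 101 CPM (median 42.4) in pituitary gland (-4.94 ± 0.38). These fat values were low in all 10 animals, the highest being 6.81 CPM of ANK3.

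PROX1, the homeobox gene that specifies lymphatic endothelium and hepatocytes, had 0.174 to 3.86 CPM (median 0.530) in fat, 160.4 to 333 CPM (median 209) in liver and 7.23 to 24.1 CPM (median 14.52) in pituitary gland. KCNMA1, a calcium-activated potassium channel, had 0.754 to 13.1 CPM (median 4.52) in fat and 35.8 to 110.4 CPM (median 59.8) in pituitary gland (-3.46 ± 0.36). CLCN4, a chloride and proton exchanger of endosomes, had 0.271 to 2.21 CPM (median 0.678) in fat and 6.80 to 25.1 CPM (median 11.0) in liver (-3.71 ± 0.32). MPP7, a scaffold of cell junctions, had 0.195 to 2.61 CPM (median 0.631) in fat and 2.87 to 19.9 CPM (median 12.3) in liver (-3.43 ± 0.37). C14H8orf22 had 0.348 to 1.13 CPM (median 0.715) in fat and 1.5 to 41.0 CPM (median 14.3) in pituitary gland (-4.28 ± 0.48). Each of the 8 was fat-low with an adjusted p of 1.64e-09 or less against its nearest tissue.

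Fat-low genes had a larger median span than all genes, and fat-high genes a smaller one. Gene span, the distance from a gene's start to its end in the RefSeq annotation of another assembly than the one used for counting, was known for 8782 genes with at least 10 CPM on average in some tissue. The median span was 55632 bases in 461 fat-low genes, 14106 bases in 582 fat-high genes and 23646 bases in all. With the genes ordered by span and cut into 4 equal groups, from the shortest to the longest, fat-high genes made up 9.61, 7.65, 4.6 and 4.64%, and fat-low genes 1.55, 2.92, 6.38 and 10.2%. The fat samples themselves differed along span. Measured as the median deviation from the median fat sample in the longest group minus that in the shortest, the balance was -1.53 on the log2 scale in bull 5, -0.99 in cow 2 and -0.60 in cow 4. It was 0.65 in cow 1 and 0.87 in cow 5, and between -0.09 and 0.14 in the other 5. The 30 samples of the other tissues, each against its own tissue, lay between -0.56 and 0.66. After an adjustment of each sample for gene span, 793 genes were fat-high and 555 fat-low, with 699 and 486 genes shared with the calls made without it. RNA quality values were not used here, and the part of RNA quality in these differences was not tested.

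**Figure D4:**
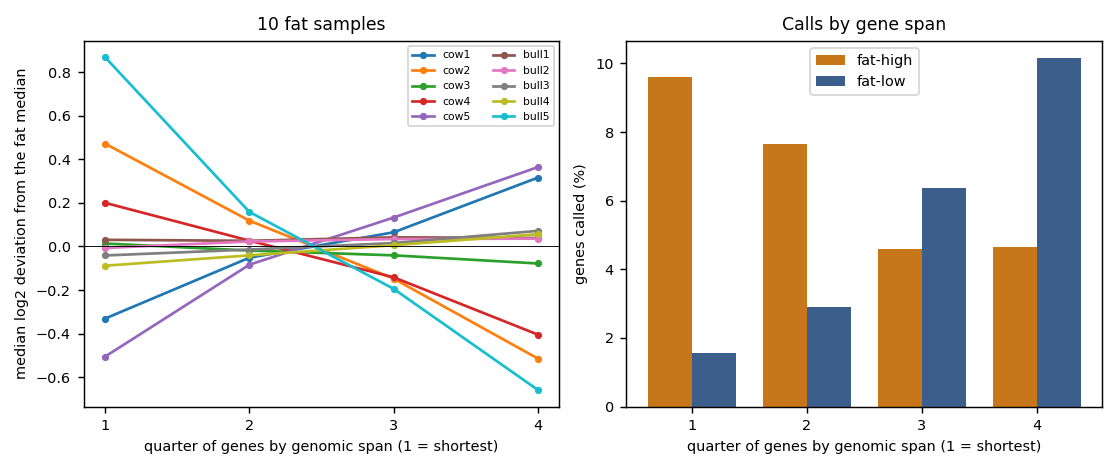
Left, the median log2 deviation of each of the 10 fat samples from the median fat sample, by 4 equal groups of genes ordered by genomic span from short (1) to long (4). Right, the percentage of genes called fat-high or fat-low in each group. Bull 5, cow 2 and cow 4 fall from left to right, cow 5 and cow 1 climb, and the fat-low percentage goes from 1.55 to 10.2%.

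Fat samples differed in other measures too. Ribosomal protein genes, 89 in all, summed to 75555 CPM in bull 5 and to 7715 CPM in cow 5, with 10756 to 31093 CPM in the other 8. Sums in the other tissues lay between 8359 and 29473 CPM. Mean correlations with the other 9 fat samples were lowest in bull 5 (0.906) and cow 5 (0.920) and reached 0.958. Bull 5 had the highest fat value of LEP, FABP4, CIDEC, ADIG, DGAT2 and PPARG and, next to cow 4, the lowest of PLIN1, at 1375 CPM.

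The 10 genes with the highest mean CPM in fat were SPARC, SCD, COL3A1, VIM, FASN, FABP4, GSN, COL1A1, COL4A1 and ALDOA, an order that also depends on gene length. Of these, 9 were fat-high. VIM, the intermediate filament vimentin of mesenchymal cells and adipocytes, had 3113 to 16058 CPM (median 7962) in fat and 439 to 1761 CPM (median 898) in muscle (2.99 ± 0.30). GSN, the actin-severing protein gelsolin, had 1698 to 10267 CPM (median 5349.7) in fat and 941 to 5441 CPM (median 1261) in muscle (1.75 ± 0.25). ALDOA, the glycolytic aldolase of muscle, was the exception, higher in muscle (9489 to 34306 CPM) than in fat (2389 to 9777 CPM).

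Cow 4 was high in part of the lipogenic genes. This sample had the highest fat value of FASN (19944 CPM against at most 9788 CPM in the others), ACLY (1855 against at most 610.0), SREBF1 (980.1 against at most 365) and MLXIPL (261 against at most 110.2). ACSS2 was highest there too, at 5465 CPM, and so were SLC2A4 (53.2 CPM) and AGT (156 CPM). SCD in cow 4 (15329 CPM) lay inside the range of the others, which went from 5703 CPM in cow 2 to 23179.6 CPM in cow 5. Other lipogenic genes were not highest in cow 4. ACACA had 2155 CPM there and 3625 CPM in cow 5, and ELOVL6 (363 CPM), ME1 (166 CPM) and IDH1 (577 CPM) lay below the median fat sample. With 1 such animal no comparison could be made.

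Among genes with at least 10 CPM on average in fat, the 10 with the largest spread between fat samples included XIST and USP9Y, which separate the sexes. USP9Y had 28.1 to 34.1 CPM in the fat of 4 bulls and 1.78 CPM in that of bull 5, where XIST had 1.39 CPM. GRP, gastrin-releasing peptide, ranged from 1.495 CPM in cow 5 to 178 CPM in bull 5 and 169.6 CPM in cow 2. It was fat-high, with at most 0.432 CPM in liver and muscle and 12.7 CPM in pituitary gland. PTX3, a secreted pentraxin of innate immunity, was fat-high at 6.96 to 729 CPM (median 148), though 1 muscle sample reached 741 CPM and the call against muscle was lost without the animal block. KIF5B (a kinesin heavy chain), VCAN (the matrix proteoglycan versican) and ATP13A3 (a transport ATPase) were lowest in bull 5, at 4.33, 1.16 and 0.773 CPM. Cow 2 was next to it in KIF5B and ATP13A3 (8.71 and 1.49 CPM) and in VCAN (11.3 CPM). Cow 2 also held the highest values of PRSS2 (a trypsinogen, 118 CPM) and IGLL1 (an immunoglobulin light chain-like gene, 303 CPM), with 31.0 and 41.9 CPM as the next. JSP.1, a class I histocompatibility gene, ranged from 2.78 to 395 CPM. Reads of such multigene families can be split or lost among copies, so these levels are uncertain.

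Within fat, cows and bulls were compared with the likelihood ratio test of edgeR, as in the study. It called 15 genes (0.114%), 6 higher in bulls (0.0456%) and 9 higher in cows (0.0685%), and 905 genes (6.88%) had an unadjusted p under 0.05. Of these 15, 5 were fat-high, against 6.51% of all genes. Conversely, 0.584% of the fat-high genes were called by sex, against 0.114% of all genes. A link between the calls was not tested. The fat-high call of DNAH2 against muscle was lost without any 1 of 4 animals and those of CLEC12B with DESeq2. ADM, the vasodilator peptide adrenomedullin, had 503 to 1498 CPM in the fat of cows and 224 to 352 CPM in that of bulls (log2 male to female -1.53, adjusted p = 0.0467). Outside fat it reached at most 147 CPM. The study's qRT-PCR in cattle found no significant sex difference of ADM in fat. DNAH2, a heavy chain of ciliary dynein, had 11.6 to 45.5 CPM in cows and 1.46 to 10.5 CPM in bulls (-2.14, adjusted p = 0.0455). ACR, the sperm protease acrosin, was higher in cows and TECTB in bulls (-2.83 and 2.93, adjusted p = 0.0171 for both). CLEC12B, a lectin-like receptor of immune cells, had no read in the fat of cows and 0.0773 to 1.18 CPM in that of bulls (adjusted p = 0.0264). Its highest count in fat was 14 reads, in bull 4, so its call and its lack of overlap rest on few reads. For each of these 5 genes all values of one sex lay above those of the other, as was the case for 170 genes in fat (1.29%). With the quasi-likelihood test all 5 missed the threshold (adjusted p from 0.667 to 0.813), and with the likelihood ratio test each lost its call in several of the fits that left out 1 animal. Without the fat of cow 2, cow 4 and bull 5 the likelihood ratio test called 52 genes, 14 of the 15 among them. Without the fat of cow 1 and cow 5 it called 22 genes, and DNAH2, TECTB and CLEC12B missed the threshold (adjusted p = 0.257, 0.169 and 0.168).

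**Figure D5:**
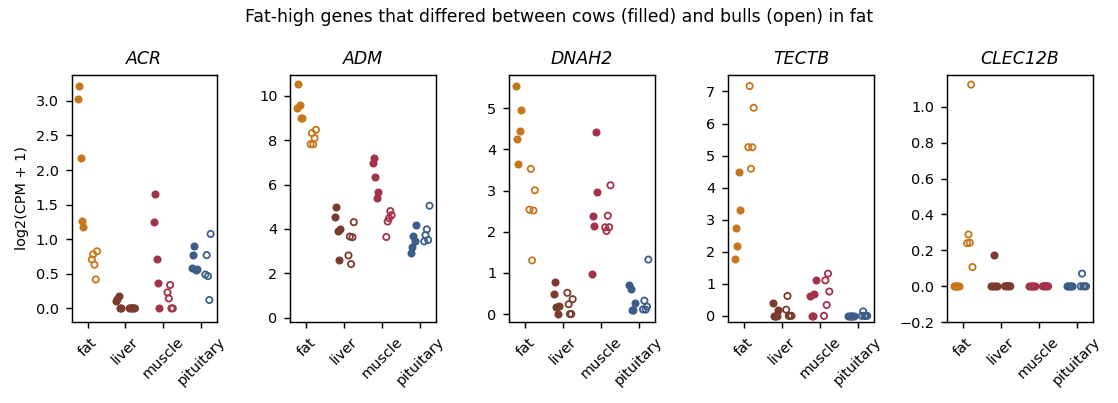
Expression of ACR, ADM, DNAH2, TECTB and CLEC12B as log2(CPM + 1) in the cows (filled) and bulls (open) of each tissue. In fat the sexes do not overlap in any of the 5 panels, with cows higher in ACR, ADM and DNAH2 and bulls higher in TECTB and CLEC12B. CLEC12B had at most 14 reads in a fat sample.

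Whether the sex difference of fat departed from the mean sex difference of the other 3 tissues was tested in the model over all 40 samples. With edgeR's quasi-likelihood test no gene passed the threshold (0%), and 764 genes (5.81%) had an unadjusted p under 0.05, while the likelihood ratio test called 8 genes. The library labelled as the liver of bull 3, with XIST reads and none on USP9Y, DDX3Y and ZFY, entered as male. Without it the quasi-likelihood test called 0 genes. The values below include that library. The smallest adjusted p was 0.145, for genes that included LUM and LYZ. The log2 difference of differences, male to female, was 1.76 for LUM, a collagen-binding proteoglycan, and 2.18 for LYZ, lysozyme. LRRN4CL had 1.31 (adjusted p = 0.205) and CNIH 1.10 (adjusted p = 0.279).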

How the data were processed

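Total RNA was extracted with TRIzol and sequenced. Per the labels and the study's methods, the authors trimmed reads with Trimmomatic, aligned them to bosTau7 with Bowtie2 and TopHat2, used SAMtools, and counted reads per gene with HTSeq on the UCSC annotation. The deposited values are raw counts per gene symbol. The HTSeq version and the strand setting are not given in the sources used here, so overlapping genes are uncertain. The row without a gene name (0.114 to 2.69% of counted reads) and the HTSeq summary rows were left out.

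Of 13570 genes, 13148 had at least 1 read in at least 1 sample and were tested, with edgeR 4.0.16 in R 4.3.3, TMM factors and a quasi-likelihood fit over the 40 samples with tissue and animal as terms. A call against 1 tissue needed an adjusted p (Benjamini-Hochberg) below 0.05 and a 2-fold difference. Sex within fat followed the study, with edgeR's likelihood ratio test on the 10 fat samples. Samples pair by ear tag, that is, by animal. The mean correlation of a fat sample's deviation with that of the same animal was 0.071 for liver, 0.270 for muscle and 0.005 for pituitary gland, against -0.021, -0.060 and -0.008 for other animals, over 6862 genes. The tests were tried on simulated counts. Alternatives were DESeq2 1.42.0, RLE factors, a filter on low counts (filterByExpr), no fold minimum, no block, leaving out animals or libraries, and offsets for gene span, the last chosen after seeing the data, as were the fat samples left out together. Spans, names and neighbours came from RefSeq by symbol (12500 genes, or 13387 with synonyms), and no coordinates were used since the assemblies differ.

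Named genes were the markers ADIPOQ, LEP and PLIN1, the 20 fat-high and 8 fat-low genes farthest from their nearest tissue, the 10 highest and the 10 most variable genes in fat with at least 10 CPM, fat-high or fat-low genes called by sex, the 5 genes with the smallest p for the difference of sex effects, and members of 12 process and 13 cell type lists. These members and lists were chosen with earlier results of these data known. Libraries of 1 group were separate animals. Some genes that the rules name are not reported here.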

Additional observations from a re-analysis of the deposited data

Results flagged for a closer look

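In 38 of 134 groups of 10 fat values looked at, 1 sample stood apart from the rest by Dixon's 95% criterion. The criterion assumes normally distributed values and was applied to CPM, which are skewed towards high values. The count therefore has no chance rate to be set against. The genes had been chosen by the naming rules and are not a random sample, and 8 of them were named for their spread between fat samples, of which 4 are among the 38. Of the 38 values, 31 are high values in bull 5, cow 2 and cow 4, the fat samples with fewer reads on long genes. The part of that difference in these values was not tested.

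Bull 5 stood above the other fat samples in the adipocyte genes ADIG (704 CPM), C28H10orf116 (4899 CPM), CIDEA (801 CPM), CIDEC (5352 CPM), LEP (2216 CPM), TUSC5 (2723 CPM) and GPD1 (1986 CPM), and in the sum of the adipocyte markers (31049 CPM). It was also apart in the calcium-binding protein gene S100G (484 CPM), in MDFI (215 CPM), SDSL (164 CPM) and NR1H3 (427 CPM), in the mitochondrial carrier UCP2 (602 CPM) and in the glycolytic ALDOA (9777 CPM). The high values of bull 5 were not limited to adipocyte genes. DES, the muscle intermediate filament desmin, reached 1404 CPM and the sum of mural and smooth muscle cell markers 6753 CPM. APOA1, a hepatocyte lipoprotein gene, reached 337 CPM, above the highest liver sample (289 CPM). The red blood cell markers summed to only 2.40 CPM, most of it from AHSP (2.32 CPM). HBB, another of these markers, had no read in any fat sample.

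Cow 2 stood apart in S100A5 (137 CPM), ADM (1498 CPM), PC (931 CPM), IGLL1 (303 CPM), PRSS2 (118 CPM), RETN (1.23 CPM) and UCP3 (0.520 CPM), and in the sum of T and NK cell markers (98.7 CPM). Cow 4 did so in the lipogenic genes FASN (19944 CPM), SREBF1 (980.1 CPM) and MLXIPL (261 CPM), in AGT (156 CPM) and in the sum of mesothelial markers (202 CPM).

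In the other fat samples the values were scattered. Cow 5 stood apart in ATP13A3 (160.1 CPM) and the skeletal muscle actin gene ACTA1 (51.5 CPM). Cow 1 did in PROX1 (3.86 CPM), cow 3 in HOXA9 (94.4 CPM), bull 1 in VCAN (295 CPM), bull 3 in ADRB3 (2.47 CPM) and bull 4 in CLEC12B (1.18 CPM).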

How the results depend on the processing

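Without the animal block that pairs the tissues, 911 genes were fat-high and 551 fat-low, 3443 genes were higher and 2792 lower than in liver, 3135 and 2515 than in muscle, and 2986 and 3197 than in pituitary gland. Relative to the mean of the other tissues the counts without the block were 4347 and 3901, and 0 genes passed for the difference of sex effects. With DESeq2, 788 genes were fat-high and 610 fat-low, and 783 and 576 of them were shared with the main calls. Without a fold minimum, 1481 genes were fat-high and 1094 fat-low. Without the fat of cow 2, cow 4 and bull 5, an alternative added after seeing the data, 393 genes were fat-low, and without the fat of cow 1 and cow 5, added likewise, 829 were. Leaving out 1 animal at a time gave 819 to 905 fat-high and 447 to 720 fat-low genes. For sex within fat the count of 15 became 28 with DESeq2, 6 with the stricter filter on low counts, 3 with the quasi-likelihood test, 52 without those 3 fat samples and 5 to 22 with 1 animal left out. For the difference of sex effects the count of 0 became 8 with the likelihood ratio test, 2 without the fat of bull 5, 3 without the 3 fat samples and 0 to 2 with 1 animal left out. The cause of these changes was not tested. Over the named genes and alternatives, 12602 results kept their side of the threshold, 145 lost it, 69 gained it and none changed sign while called. No alternative moved the median over all genes of fat minus the mean of the other tissues by more than 0.085 on the log2 scale. The largest shift came without bull 5, and RLE factors gave -0.034. Reads per sample and 5 animals per sex limit what sex differences can be detected, and whole tissue limits any statement on cell types.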
